A study of Mus musculus with 8 samples.

Results

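Glypicans and syndecans are the 2 families of cell surface proteins that carry heparan sulfate, and mice have 6 glypican genes (*Gpc1* to *Gpc6*) and 4 syndecan genes (*Sdc1* to *Sdc4*). All 10 were found by symbol in the NCBIM37 annotation among the 36536 genes counted in each library, and all 10 passed the filter on low counts in every comparison. RNA-seq was performed on cells dissociated and sorted without culture from the cochleas of mice at postnatal day 1 (P1) and day 6 (P6). All mice carried the same BAC transgene, B6;FVB-Tg(Lfng-EGFP)HM340Gsat/Mmucd, in which *Lfng* sequences drive EGFP in Deiters' cells, outer pillar cells, border cells and phalangeal cells of the inner hair cell, but not in inner pillar cells. Sorting took the brightest GFP+ cells and, apart from them, the GFP- cells, which at both ages gives 4 groups, P1 GFP+, P1 GFP-, P6 GFP+ and P6 GFP-, with 2 replicate libraries in each group. Cells of dim GFP fluorescence were not collected, and the study took them to be probably inner pillar and inner hair cells. The GFP- cells are a mixture of the cell types without GFP that were left in the dissected tissue, so fewer cells of a type and less RNA per cell cannot be told apart there.

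Heparan sulfate is a long sulfated sugar chain that binds secreted signals of the FGF, Wnt, Hedgehog and BMP families, and its core proteins hold those signals at the cell surface. Glypicans are tied to the outer membrane by a lipid (GPI) anchor. Syndecans cross the membrane and end in a short cytoplasmic tail that binds scaffold proteins with PDZ domains, and metalloproteinases can shed their outer part. In the organ of Corti, supporting cells separate the hair cells from each other and respond to FGF and Wnt signals during development.

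The 4 syndecans share a feature that the grouping by symbol did not use, the end of the coding sequence. The last 60 coding bases of the longest complete coding transcript of each gene in the NCBIM37 annotation are shown because this stretch encodes the tail that binds PDZ scaffolds. Capitals mark the last 4 codons and the stop codon.
Sdc1: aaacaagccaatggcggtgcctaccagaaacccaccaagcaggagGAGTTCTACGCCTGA
Sdc2: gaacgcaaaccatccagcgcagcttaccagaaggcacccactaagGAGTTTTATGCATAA
Sdc3: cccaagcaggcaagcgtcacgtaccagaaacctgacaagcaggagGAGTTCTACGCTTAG
Sdc4: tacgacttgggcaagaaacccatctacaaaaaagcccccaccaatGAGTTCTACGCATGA
All 4 end in the same order of a GAG codon, a TTC or TTT codon, a TAC or TAT codon and a GCN codon, and only the third base of a codon and the stop codon differ between them. Coding lengths ranged from 198 codons in *Sdc4* and 202 in *Sdc2* to 311 in *Sdc1* and 442 in *Sdc3*. The 6 glypicans were of nearly equal coding length, from 557 codons in *Gpc1* and *Gpc4* to 579 in *Gpc2* and *Gpc3*. A serine codon followed by a glycine codon, the pair at which heparan sulfate chains are attached, occurred from 2 times in *Gpc3* to 8 times in *Sdc3*.

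Promoter sequence was matched by symbol in a RefSeq table (GRCm38.p6, a different build from that of the counts) for 7 of the 10 genes, and *Gpc1*, *Gpc6* and *Sdc2* had no entry. The 250 bases before the start are shown for *Gpc3* and *Gpc4*, which are neighbours on the X chromosome with different patterns below, and for *Sdc4*, the syndecan with the highest level in GFP+ cells. They are written 5′ to 3′ on the strand of the gene, and capitals mark matches to GGGCGG (the GC box) or CCAAT (the CCAAT box) on either strand, the reverse forms being CCGCCC and ATTGG.
Gpc3, chrX:52613975-52614224, minus strand: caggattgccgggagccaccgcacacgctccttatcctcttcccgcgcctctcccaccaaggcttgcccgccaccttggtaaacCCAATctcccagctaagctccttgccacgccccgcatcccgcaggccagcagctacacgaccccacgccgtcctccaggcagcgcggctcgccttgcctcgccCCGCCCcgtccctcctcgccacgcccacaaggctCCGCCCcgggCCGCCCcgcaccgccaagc
Gpc4, chrX:52164924-52165173, minus strand: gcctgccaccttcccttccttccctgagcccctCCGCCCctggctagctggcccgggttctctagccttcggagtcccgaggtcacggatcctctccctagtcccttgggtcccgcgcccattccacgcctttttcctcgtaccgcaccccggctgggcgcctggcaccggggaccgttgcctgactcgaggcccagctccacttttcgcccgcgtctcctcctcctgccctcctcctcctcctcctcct
Sdc4, chr2:164443189-164443438, minus strand: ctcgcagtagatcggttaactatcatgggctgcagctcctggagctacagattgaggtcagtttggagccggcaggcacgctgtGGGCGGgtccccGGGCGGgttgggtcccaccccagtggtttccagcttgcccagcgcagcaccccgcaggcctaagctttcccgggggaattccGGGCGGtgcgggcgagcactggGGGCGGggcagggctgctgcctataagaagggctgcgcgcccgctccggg
The GC box occurred in all 7 promoters, with 3 matches in *Gpc3*, 1 in *Gpc4* and 4 in *Sdc4*, against 32.7% of the 32851 promoters of the same length in the table. CCAAT was found in *Gpc2*, *Gpc3* and *Sdc1* and in 33.8% of all promoters. TATAAA was found only in *Gpc5* among the 7 and in 12.4% of all promoters. TGGGAA, a core letter string bound by the Notch effector RBPJ, was in none of the 7 windows and in 21.6% of all promoters. The GC content of the 250 bases was 51.2% in *Gpc5* and between 66.0% and 76.4% in the other 6, with a median of 52.4% over all promoters. These matches are descriptions of the letters and not sites of binding.

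Between 17769024 and 67695039 counts per library fell on genes. Levels are given as CPM, counts scaled to a gene total of 1000000 per library, so that 1 CPM rested on about 18 to 68 counts. Levels compared between genes are given in RPKM, which is CPM divided by the length of the gene's exons in kilobases. The 7 supporting cell markers, among them *Lfng*, had a summed level of 6934 and 7519 CPM at P1 and 6628 and 4763 CPM at P6 in GFP+ cells, against 187 to 262 CPM in the 4 GFP- libraries. Markers of other cells were not absent from GFP+ cells, and at P6 their sums stood higher in replicate 2 than in replicate 1 for all 10 lists of other cell types. The 7 fibroblast and mesenchyme markers summed to 1759 and 3465 CPM in P6 GFP+ replicates 1 and 2. In P1 GFP+ cells they summed to 521 and 446 CPM, against 13395 to 18524 CPM in GFP- cells of both ages. *Lum* of this list was at 765 and 656 CPM in P6 GFP+ replicates 1 and 2, against 680 and 545 CPM in P6 GFP- cells. It was not called between fractions at either age (log2 fold changes of -0.68 and 0.21). The 5 Schwann cell markers summed to 1104 and 2343 CPM in P6 GFP+ replicates 1 and 2 and to 417 and 359 CPM in P1 GFP+ cells, against 732 to 1618 CPM in GFP- cells. Of these, *Sox10* alone was at 275 and 286 CPM in P1 GFP+ cells and was called higher in GFP+ cells at both ages (log2 fold changes of 1.31 and 1.82), and the other 4 were called lower at P1. The 7 hair cell markers summed to 725 and 835 CPM in P1 GFP+ cells against 472 and 414 CPM in P1 GFP- cells, and to 450 and 518 CPM against 351 and 390 CPM at P6. Among the 7, the test called 5 higher in the GFP+ fraction of P1 and 4 in that of P6, which include *Pou4f3* (log2 fold changes of 3.61 and 4.36) and *Otof* (3.39 and 2.74). None of the hair cell, fibroblast or Schwann cell markers was at 0 in both libraries of a group. The part of these cells in the members' values was not tested.

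Each fraction was led by different members. In P1 GFP+ cells *Gpc1* had the highest level of the 10, with 287 and 337 RPKM in the 2 libraries, above 99.4% of the 14606 genes at 1 CPM or more in that group. *Sdc4* was next with 82.9 and 93.0 RPKM, followed by *Sdc2* (34.0 and 31.7 RPKM) and *Gpc6* (22.1 and 20.8 RPKM). The values of *Sdc3* and *Sdc1* overlapped, between 14.3 and 17.9 RPKM, as did those of *Gpc4* and *Gpc2*, between 9.35 and 10.0 RPKM. *Gpc3* (4.27 and 2.96 RPKM) and *Gpc5* (0.174 and 0.178 RPKM) were lowest. In P1 GFP- cells the order began with *Gpc3* at 64.2 and 72.4 RPKM, which stood above 96.0% of the 15189 genes at 1 CPM or more. *Sdc3* (49.0 and 49.1 RPKM) and *Sdc2* (41.9 and 44.9 RPKM) came next, and the libraries of *Gpc1* (26.3 and 47.0 RPKM) spread over the values of *Sdc2*. The level of *Sdc4* there was 19.9 and 25.5 RPKM, and *Gpc6*, *Gpc2*, *Sdc1* and *Gpc4* lay between 11.9 and 16.3 RPKM.

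At P6 the order in GFP+ cells began with *Sdc4* at 212 and 156 RPKM, above 98.7% of the 14739 genes at 1 CPM or more. *Gpc1* followed at 77.5 and 69.3 RPKM and *Sdc2* at 36.4 and 36.7 RPKM. *Sdc1*, *Sdc3*, *Gpc4*, *Gpc6* and *Gpc2* lay between 9.10 and 18.0 RPKM, and within this range the libraries of *Sdc3* (9.49 and 16.2 RPKM) overlapped those of *Sdc1*, *Gpc4* and *Gpc6*. *Gpc3* was at 3.37 RPKM in replicate 1 and 9.50 RPKM in replicate 2. In P6 GFP- cells *Gpc3* (63.9 and 48.8 RPKM) overlapped both *Sdc2* (62.4 and 52.6 RPKM) and *Sdc3* (51.0 and 45.9 RPKM) at the top, *Sdc2* lay above *Sdc3*, and *Gpc1* (43.6 and 38.6 RPKM) and *Sdc4* (35.9 and 24.6 RPKM) lay below them. *Gpc5* was the lowest member in all 8 libraries, at 10 to 19 counts in GFP+ libraries and 88 to 272 counts in GFP- libraries.

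**Figure D1:**
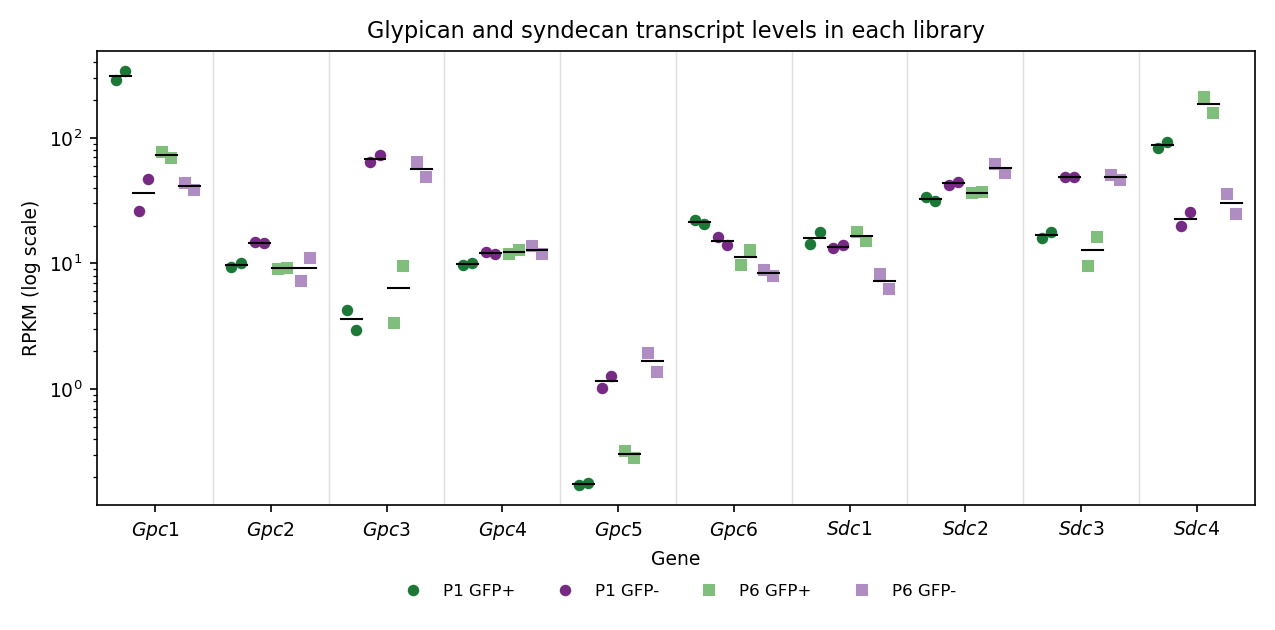
Level of each glypican and syndecan in RPKM (log scale) in the 8 libraries, where points are libraries, circles are P1, squares are P6, green is GFP+, purple is GFP- and black bars are means of 2. *Gpc1* and *Sdc4* sit higher in GFP+ than in GFP- libraries at both ages, *Gpc3*, *Gpc5* and *Sdc3* sit lower, and *Gpc4* differs little between groups.

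The make-up of each family differed between fractions and ages. Summed over the 6 glypicans, the level was 332 and 381 RPKM in P1 GFP+ cells and 112 and 114 RPKM in P6 GFP+ cells. The GFP- libraries held 135 and 161 RPKM at P1 and 139 and 120 RPKM at P6. *Gpc1* made up 86.3% and 88.5% of the glypican RPKM of P1 GFP+ cells, 69.2% and 60.8% at P6, and 19.5% to 32.2% in GFP- cells. *Gpc3* made up 40.8% to 47.5% in GFP- cells of both ages and 0.775% to 8.34% in GFP+ cells. Summed over the 4 syndecans, the level was 147 and 160 RPKM in P1 GFP+ cells and 276 and 224 RPKM in P6 GFP+ cells, against 124 and 134 RPKM in P1 GFP- cells and 158 and 129 RPKM in P6 GFP- cells. *Sdc4* made up 56.4% and 58.0% of the syndecan RPKM in P1 GFP+ cells and 76.9% and 69.7% in P6 GFP+ cells. In GFP- cells *Sdc2* and *Sdc3* each made up 32.4% to 40.6%, and *Sdc4* made up 16.0% to 22.8%.

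The ratio of the glypican to the syndecan sum was 2.26 and 2.38 in GFP+ libraries of P1 and 0.406 and 0.507 in those of P6, and those groups did not overlap. In GFP- cells it was 1.09 and 1.21 at P1 and 0.885 and 0.924 at P6, which did not overlap either. With 2 libraries against 2, a two-sided exact permutation test cannot give a p below 0.333, so these sums and ratios are descriptions.

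**Figure D2:**
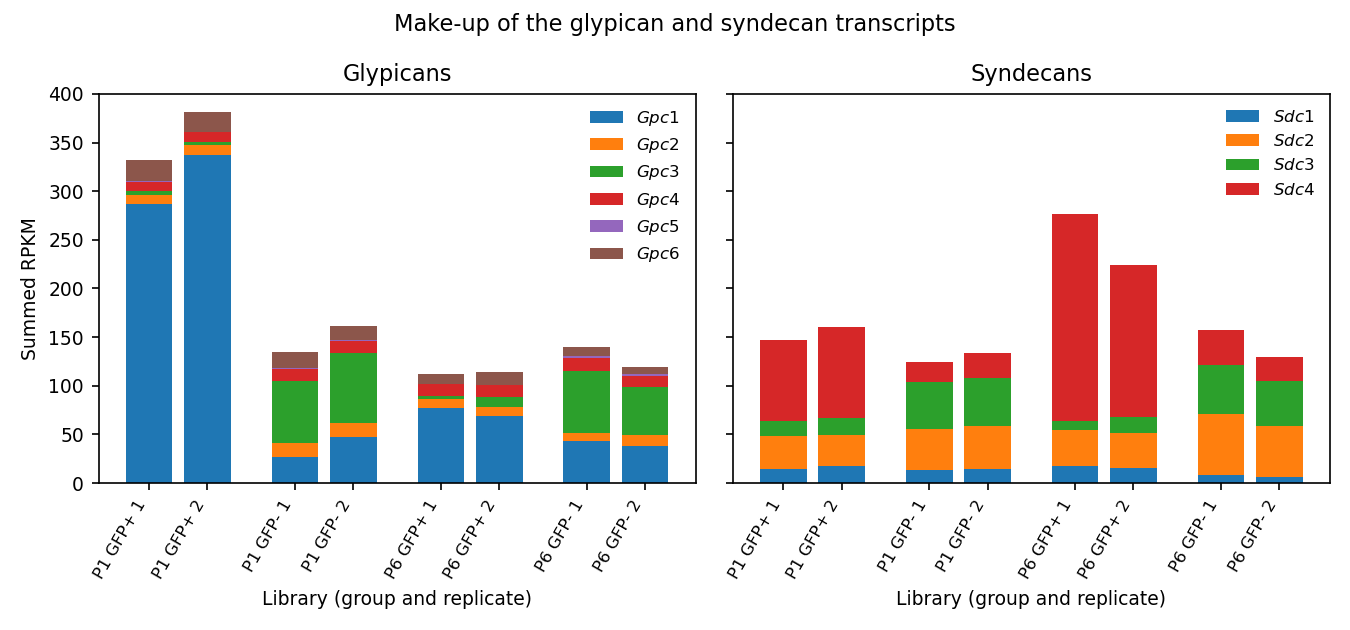
Summed RPKM of the glypicans (left) and syndecans (right) in each of the 8 libraries, with 1 stacked bar per library and 1 colour per gene. *Gpc1* fills most of the glypican bar in GFP+ libraries and *Gpc3* the largest part in GFP- libraries, and *Sdc4* fills most of the syndecan bar in GFP+ libraries.

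The comparison of GFP+ with GFP- cells asks which core proteins are enriched in the brightly labelled supporting cells against the GFP- cells that were collected. At P1, 3 of the 10 members were higher and 4 were lower in GFP+ cells (edgeR quasi-likelihood test, Benjamini-Hochberg adjusted p below 0.01), where 16.6% of the 18682 genes tested were higher and 20.7% were lower. With the study's additional criterion of a fold change above 4, 2 members were higher (*Gpc1* and *Sdc4*) and 2 were lower (*Gpc3* and *Gpc5*), against 6.46% and 11.4% of all genes. The median log2 fold change of the 10 members was -0.25, and that of all genes was 0.01.

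*Gpc1*, a glypican that binds FGF ligands, was measured at 1031 and 1213 CPM in P1 GFP+ cells and at 94.7 and 169 CPM in P1 GFP- cells. Both GFP+ libraries stood far above both GFP- libraries, although the GFP- replicates differed by a larger ratio than the GFP+ replicates did. The log2 fold change was 3.19 (SE 0.28, adjusted p = 0.000289), a 9.13-fold difference. The study chose *Gpc1* for in situ hybridization, and the primers that define its probe are shown because they mark the stretch of the transcript that was imaged. The forward primer (5′-cttggccttttgaggtcca-3′, chr1:94755202-94755220, NCBIM37, plus strand) and the part of the reverse primer that matches the gene (5′-actgagctccacagtggta-3′, chr1:94755722-94755740, minus strand) each had 1 match on the chromosome. Both lie in the 3′ UTR in exon 9 of 9, and they bound 539 bases of the transcript. The study listed its P1 signal in supporting cells, the greater epithelial ridge and a region abbreviated as LER, and no detectable signal at P6.

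*Sdc4*, the syndecan of focal adhesions, was at 211 and 237 CPM in P1 GFP+ cells and at 50.6 and 65.0 CPM in P1 GFP- cells, with no overlap. Its log2 fold change was 2.06 (SE 0.14, adjusted p = 9.63e-05). *Gpc6*, a glypican that takes part in synapse formation when released by astrocytes, had 209 and 196 CPM against 154 and 132 CPM. The difference was small, with a log2 fold change of 0.61 (SE 0.11, adjusted p = 0.00602), but the groups did not overlap. *Sdc1*, the main syndecan of many epithelia, was at 54.3 and 68.2 CPM against 50.5 and 53.4 CPM and did not pass the test (log2 fold change 0.34, adjusted p = 0.0494).

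Among the members that were lower, *Gpc3*, which binds Hedgehog ligands and limits body growth, had the largest difference. It was measured at 11.5 and 7.95 CPM in P1 GFP+ cells and at 173 and 195 CPM in P1 GFP- cells, a log2 fold change of -4.11 (SE 0.21, adjusted p = 3.54e-05). The corresponding fold was 17.3. *Gpc5* was at 0.393 and 0.402 CPM against 2.32 and 2.88 CPM, and its log2 fold change of -2.60 (SE 0.32, adjusted p = 0.00103) rests on 18 and 10 counts in GFP+ cells. *Sdc3*, the syndecan best known from neurons, was at 95.0 and 106 CPM against 294 and 294 CPM (log2 fold change -1.45, SE 0.09, adjusted p = 6.96e-05), and its replicates were close in both fractions. *Gpc2*, a glypican of developing neurons, was at 77.7 and 83.3 CPM against 123 and 120 CPM, a log2 fold change of -0.49 (SE 0.08, adjusted p = 0.00351). Its exons share 3221 bases with *Gal3st4* on the same strand and 879 bases with an antisense non-coding gene, so the counts of *Gpc2* are uncertain. *Sdc2*, a syndecan of mesenchymal cells, was at 113 and 105 CPM against 139 and 149 CPM (log2 fold change -0.30, adjusted p = 0.0420) and *Gpc4*, a modulator of Wnt and BMP signals, at 25.6 and 26.5 CPM against 32.6 and 31.6 CPM (log2 fold change -0.20, adjusted p = 0.142). Neither passed the test. Their groups did not overlap, but with 2 libraries against 2 an exact permutation test cannot give a p below 0.333 from that.

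The calls of *Gpc1*, *Gpc3*, *Sdc3* and *Sdc4* at P1 were kept without any 1 library. Without P1 GFP+ replicate 1 or 2 the calls of *Gpc2*, *Gpc5* and *Gpc6* were lost, and fewer genes of any kind were called. Their log2 fold changes were -0.46, -2.61 and 0.54 without replicate 1 and -0.51, -2.59 and 0.68 without replicate 2. Without P1 GFP- replicate 2 the log2 fold change of *Sdc1* was 0.36, and without P1 GFP- replicate 1 that of *Sdc2* was -0.37. With all 8 libraries in the fit the calls of *Gpc2* and *Gpc6* were lost (adjusted p = 0.0377 and 0.0160).

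At P6, 1 member was higher in GFP+ cells (*Sdc4*) and 3 were lower (*Gpc3*, *Gpc5* and *Sdc3*), where 7.72% of the 18294 genes tested were higher and 5.19% were lower. With the criterion of a fold change above 4, 1 was higher and 2 were lower, against 4.88% and 3.1% of all genes. *Sdc4* was at 541 and 398 CPM in GFP+ cells and at 91.4 and 62.7 CPM in GFP- cells. Its log2 fold change was 2.60 (SE 0.29, adjusted p = 0.00326). It was higher in GFP+ cells at both ages in every library.

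*Gpc3* was at 9.06 and 25.5 CPM in P6 GFP+ cells and at 172 and 131 CPM in P6 GFP- cells (log2 fold change -3.14, SE 0.49, adjusted p = 0.00778). The GFP+ replicates differed widely, and the higher value was in replicate 2. The sum of the fibroblast and mesenchyme markers was also higher there (3465 against 1759 CPM), but *Lum* of that list was lower (656 against 765 CPM). *Sdc3* was at 56.8 and 97.3 CPM against 306 and 275 CPM (log2 fold change -1.92, SE 0.28, adjusted p = 0.00663), again with the higher GFP+ value in replicate 2. The part of other cells in these values was not tested. *Gpc5* was at 0.732 and 0.636 CPM against 4.41 and 3.09 CPM (log2 fold change -2.47, SE 0.38, adjusted p = 0.00783), from 13 and 19 counts in GFP+ cells. For all 3 the GFP+ libraries stayed below the GFP- libraries.

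*Gpc1* was at 279 and 249 CPM in P6 GFP+ cells against 157 and 139 CPM in P6 GFP- cells, without overlap, and did not pass the test (log2 fold change 0.83, adjusted p = 0.0203 by edgeR). *Sdc1* was at 68.4 and 57.3 CPM against 31.2 and 23.9 CPM and narrowly missed the threshold (log2 fold change 1.18, SE 0.21, adjusted p = 0.0109). DESeq2 called both, with adjusted p-values of 0.00309 and 0.000292, where it called 2228 genes higher and 2569 lower among 18806. *Sdc2* was at 121 and 122 CPM against 207 and 175 CPM (log2 fold change -0.66, adjusted p = 0.0345). *Gpc6* was at 92.1 and 121 CPM against 84.0 and 75.4 CPM (log2 fold change 0.41, adjusted p = 0.144). The values of *Gpc4* overlapped between fractions (31.8 and 34.1 against 36.2 and 31.4 CPM), as did those of *Gpc2* (75.6 and 76.3 against 60.7 and 91.4 CPM). Their log2 fold changes were -0.04 and -0.01.

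Without P6 GFP- replicate 1 or 2, none of the 4 calls at P6 was kept, with adjusted p-values from 0.0113 to 0.0670. In those fits few genes of any kind were called, 359 higher and 7 lower among 18188 tested without replicate 1 and 0 among 18019 without replicate 2. The log2 fold changes of the 4 genes kept their direction in both. Without P6 GFP+ replicate 1 or 2, the log2 fold changes were 0.78 and 0.93 for *Gpc1* and 1.08 and 1.33 for *Sdc1*. They were -0.62 and -0.64 for *Sdc2* and 0.62 and 0.23 for *Gpc6*. More genes of any kind were called there than in the reported fit. With library totals in place of TMM the adjusted p of *Gpc3* was 0.0118.

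**Figure D3:**
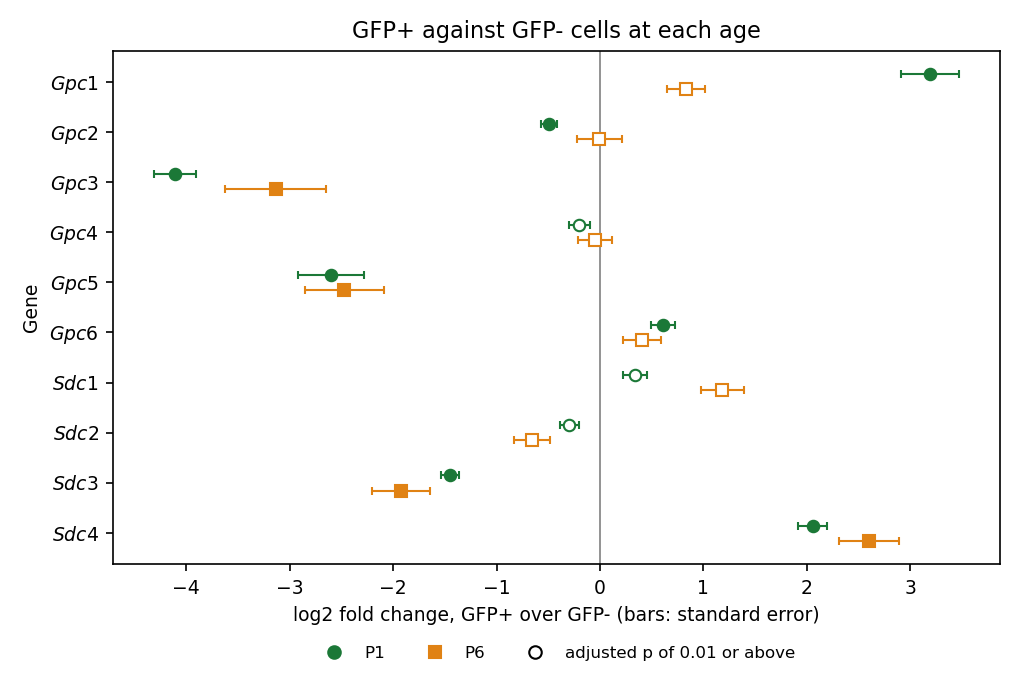
Log2 fold change of GFP+ over GFP- cells for each member at P1 (green circles) and P6 (orange squares), with bars for the standard error and open symbols for an adjusted p of 0.01 or above. *Sdc4* lies to the right and *Gpc3*, *Gpc5* and *Sdc3* to the left at both ages, and the P1 value of *Gpc1* (3.19) lies far from its P6 value (0.83).

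The comparison of ages within GFP+ cells asks which members differ between the GFP+ cells sorted at P1 and at P6. The outer wall of the duct was taken off at P1 but only in part at P6, so age and dissection cannot be told apart here. Fibroblast and mesenchyme markers in GFP+ cells summed to 521 and 446 CPM at P1 and to 1759 and 3465 CPM at P6. Hair cell markers went the other way, from 725 and 835 CPM to 450 and 518 CPM. The part of other cells in the differences between ages was not tested. Of the 10, 1 was lower at P6 than at P1 and none was higher by edgeR, where 1.95% of the 17213 genes tested were lower and 2.86% were higher. The member that fell was *Gpc1*, from 1031 and 1213 CPM to 279 and 249 CPM. Its log2 fold change was -1.99 (SE 0.17, adjusted p = 0.00398), or 3.98-fold. The study also required a fold change above 4 between the ages, which *Gpc1* did not reach here. Without P1 GFP+ replicate 2 its log2 fold change was -1.90 and its adjusted p was 0.0194. At an unadjusted p below 0.05 there were 4 members, a count without the share of all genes. DESeq2 called 1 member higher and 2 lower, where it called 1883 genes higher and 1128 lower among 17530. Its additional calls were *Sdc4*, at 211 and 237 CPM at P1 and 541 and 398 CPM at P6 (edgeR log2 fold change 1.17, SE 0.20, adjusted p = 0.0204), and *Gpc6*, at 209 and 196 CPM at P1 and 92.1 and 121 CPM at P6 (edgeR log2 fold change -0.84, SE 0.16, adjusted p = 0.0240). Neither gene had overlapping libraries. Without either P6 GFP+ library far more genes of any kind were called than in the reported fit, so calls of members there are not given.

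*Gpc3* and *Sdc3* gave no stable direction between ages in GFP+ cells, and their P6 replicates lay apart. For *Gpc3* the log2 fold change was 0.91 (adjusted p = 0.237), 1.43 without P6 GFP+ replicate 1 and -0.0028 without P6 GFP+ replicate 2. For *Sdc3* it was -0.29 (adjusted p = 0.425), 0.021 without replicate 1 and -0.69 without replicate 2. *Gpc4* was at 25.6 and 26.5 CPM at P1 and 31.8 and 34.1 CPM at P6 (log2 fold change 0.43, adjusted p = 0.0748). Its calls without a P6 GFP+ library are not given, because so many genes of any kind were called in those fits. The log2 fold changes of *Gpc2*, *Sdc1* and *Sdc2* were 0.01, 0.13 and 0.25, and that of the low *Gpc5* was 0.86 (adjusted p = 0.180).

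In GFP- cells 0 of the 10 members differed between P6 and P1 by edgeR at an adjusted p below 0.01, where 5.04% of the 18920 genes tested were higher at P6 and 2.34% were lower. At an unadjusted p below 0.05 there were 6 members, a count without the share of all genes. DESeq2 called 1 member higher (*Sdc2*) and 2 lower (*Gpc6* and *Sdc1*), where it called 1882 genes higher and 1168 lower among 17600. *Sdc2* was at 139 and 149 CPM at P1 and 207 and 175 CPM at P6 (edgeR log2 fold change 0.60, adjusted p = 0.0228). *Gpc6* was at 154 and 132 CPM at P1 and 84.0 and 75.4 CPM at P6 (log2 fold change -0.65, adjusted p = 0.0162). *Sdc1* was at 50.5 and 53.4 CPM at P1 and 31.2 and 23.9 CPM at P6 (log2 fold change -0.72, adjusted p = 0.0243). Scaling by library totals in place of TMM moved the median log2 fold change of all genes from -0.02 to -0.21 in this comparison, and then *Gpc6* was called. Dissection took the outer wall of the duct, with the stria vascularis, and Reissner's membrane off at P1 but only in part at P6, so the age of GFP- cells and the tissue dissected cannot be told apart. The 5 cartilage markers summed to 19297 and 19437 CPM in P1 GFP- cells and to 46467 and 42673 CPM in P6 GFP- cells.

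Without P1 GFP- replicate 2, the log2 fold changes of *Gpc1*, *Sdc2* and *Sdc4* from P1 to P6 in GFP- cells were 0.82, 0.63 and 0.79. Those of *Gpc6* and *Sdc1* were -0.77 and -0.70. Without P1 GFP- replicate 1, *Sdc1* had a log2 fold change of -0.77 and *Gpc1* one of -0.014. *Gpc1* was at 94.7 CPM in P1 GFP- replicate 1 and at 169 CPM in replicate 2.

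**Figure D4:**
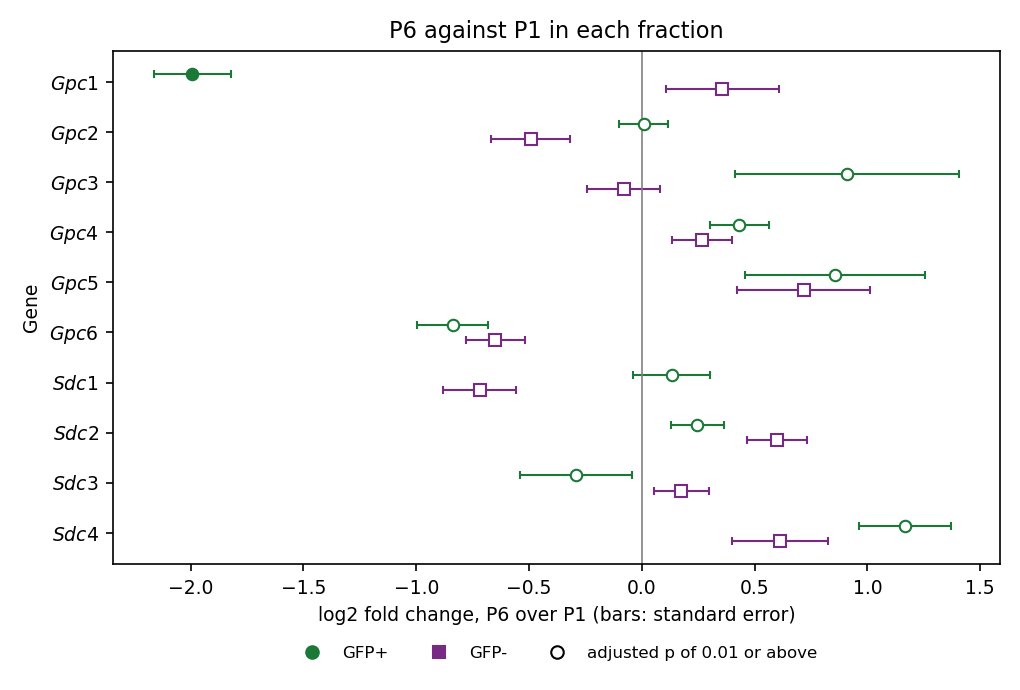
Log2 fold change of P6 over P1 for each member in GFP+ cells (green circles) and GFP- cells (purple squares), with bars for the standard error and open symbols for an adjusted p of 0.01 or above. *Gpc1* in GFP+ cells (-1.99) is the only filled symbol, and *Gpc6* lies to the left in both fractions (-0.84 and -0.65).

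Whether the fractions differed more at 1 age than at the other needs a test of its own, the interaction term fitted on all 8 libraries. It uses cells of both fractions, whose dissection differed between the ages, so age and dissection cannot be told apart in it. None of the 10 members passed it by edgeR, where 0.988% of the 19233 genes tested had a larger ratio at P1 and 0.946% a larger ratio at P6. *Gpc1* came closest, with a log2 ratio larger at P1 by 2.37 (SE 0.37, adjusted p = 0.0106), and DESeq2 called it (2.35, adjusted p = 2.59e-07). By DESeq2 539 genes had a larger ratio at P1 and 879 at P6, among 18499. With 1 library left out edgeR called it in some fits and not in others. Fits without a P6 GFP+ library also called more genes of any kind than the reported fit. *Sdc1* had a log2 ratio larger at P6 (interaction -0.83, SE 0.27, adjusted p = 0.116). *Gpc1* and *Sdc1* were the 2 members at an unadjusted p below 0.05, a count without the share of all genes. For *Sdc4* the interaction was -0.53 (SE 0.35, adjusted p = 0.440).

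Genes of the family that lie side by side did not share a pattern. *Gpc4* (chrX:49406198-49518429) and *Gpc3* (chrX:49625603-49967127, both NCBIM37, minus strand) are 107173 bases apart, and *Gpc3* was 17.3-fold lower in P1 GFP+ cells while *Gpc4* had a log2 fold change of -0.20 that did not pass the test. *Gpc5* (chr14:115491437-116923659) and *Gpc6* (chr14:117324519-118378751, both plus strand) are 400859 bases apart, and at P1 *Gpc5* was lower and *Gpc6* higher in GFP+ cells. Coding similarity grouped them differently from position. Over the 15 pairs of glypicans, identical bases in a global alignment made up 50.9% to 66.7% of the shorter coding sequence. The most alike pair was *Gpc4* with *Gpc6* (66.7%), and *Gpc3* and *Gpc5* were each most alike to the other (58.6%). The latter pair, on different chromosomes, was lower in GFP+ cells at both ages. The most alike pair did not share a pattern, with *Gpc6* higher in GFP+ cells at P1 (log2 fold change 0.61) and *Gpc4* not called (-0.20).

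The remaining positions, all in NCBIM37, are *Gpc1* at chr1:94728222-94756775 (plus strand), *Gpc2* at chr5:138706180-138721233 (minus), *Sdc1* at chr12:8778129-8800521 (plus), *Sdc2* at chr15:32850478-32964485 (plus), *Sdc3* at chr4:130348452-130382234 (plus) and *Sdc4* at chr2:164249747-164269387 (minus). The exons of *Sdc3* share 48 bases with an antisense gene, and no other member besides *Gpc2* shares exon bases with another gene. The genes span from 15054 bases in *Gpc2* to 1432223 bases in *Gpc5*.

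For each member, the 2 genes with the most alike pattern were taken by Pearson's r of log2(CPM + 1) over the 8 libraries, among 10847 genes with a mean of at least 10 CPM. These correlations are descriptions over 8 points that fall into 4 groups and share their libraries. The pattern of *Gpc1* was most like those of *Fam115c* (r = 0.996) and *Snx10* (0.990), that of *Gpc3* like *Lims1* (0.997) and *Zfpm2* (0.997), and that of *Sdc4* like *Por* (0.996) and *Pon2* (0.995). *Sdc3* was most like *Osbpl5* (0.998) and *Ptgfrn* (0.998). The leading genes were *Slc25a27* and *Hsf1* for *Gpc2*, *Elovl4* and *Ppp1r15b* for *Gpc4*, *AI597468* and *Pofut2* for *Gpc5*, and *Trim33* and *Phactr4* for *Gpc6*. They were *Prkrip1* and *Psmf1* for *Sdc1* and *Stt3a* and *Ctsz* for *Sdc2*, and all of these correlations were between 0.966 and 0.994.

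The enzymes that build and modify the chains on these core proteins were taken as a list of 31 genes. At P1, 7 of the 29 tested were higher in GFP+ cells and 9 were lower, against 16.6% and 20.7% of all genes, with a median log2 fold change of -0.23. *Hs6st1* and *Hs6st2*, which add sulfate at the 6-O position, were both higher, at 246 and 262 CPM against 50.2 and 61.4 CPM for *Hs6st1* (log2 fold change 2.29, SE 0.12, adjusted p = 4.12e-05) and at 133 and 141 CPM against 32.0 and 27.7 CPM for *Hs6st2* (2.30, SE 0.11, adjusted p = 2.91e-05). *Hs3st4*, a 3-O sulfotransferase, had a log2 fold change of 2.33 at a low level of 1.77 and 1.69 CPM in GFP+ cells. The enzymes that were lower by most were *Ndst3*, which replaces acetyl groups by sulfate (-3.98), the chain-cleaving heparanase *Hpse* (-3.85) and the 3-O sulfotransferase *Hs3st5* (-3.08).

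At P6, 4 of 28 tested chain enzymes were higher in GFP+ cells and 3 were lower, against 7.72% and 5.19% of all genes, with a median log2 fold change of -0.15. *Hs6st2* was at 205 and 173 CPM against 24.7 and 17.0 CPM (log2 fold change 3.17), and *Hs3st1*, another 3-O sulfotransferase, was higher by 2.34 on the log2 scale. *Hs3st4* was at 12.5 and 6.63 CPM against 0.195 and 0.133 CPM (log2 fold change 5.84). *Hpse* (-2.78), *Sulf2* (-2.46) and *Xylt2*, which starts the chain (-1.06), were lower. *Hs6st1*, *Hs6st2*, *Hs3st1* and *Hs3st4* were called higher, and *Hpse* and *Xylt2* lower, at both ages. Fewer chain enzymes were called at P1 without either P1 GFP+ library and at P6 without either P6 GFP- library, as over all genes.

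*Sulf2*, a secreted enzyme that removes 6-O sulfate from finished chains, went in opposite directions at the 2 ages. It was at 72.9 and 85.2 CPM in P1 GFP+ cells against 49.6 and 56.8 CPM in P1 GFP- cells (log2 fold change 0.67, adjusted p = 0.00319). At P6 it was at 31.5 and 48.2 CPM against 211 and 225 CPM (log2 fold change -2.46, adjusted p = 0.00215). The interaction was 3.15 (SE 0.27, adjusted p = 0.00115), and it was the only chain enzyme of 29 that passed this test, where 0.988% of all genes had a larger ratio at P1. Without P6 GFP- replicate 1 or 2 the interaction was 3.16 and 3.14, with adjusted p-values of 0.0146 and 0.0129. Within GFP- cells *Sulf2* rose from P1 to P6 by 2.23 on the log2 scale (adjusted p = 0.000132) and *Hpse* rose by 2.15, the only 2 of 30 called, against 5.04% of all genes that were higher, with the same difference in dissection. Within GFP+ cells 1 of 28 was called, against 2.86% of all genes that were higher. It was *Extl1* (2.45), at 1.00 and 1.00 CPM at P1 and 4.67 and 5.66 CPM at P6, a call lost without P1 GFP+ replicate 1 or 2 (adjusted p = 0.0330 and 0.0811).

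**Figure D5:**
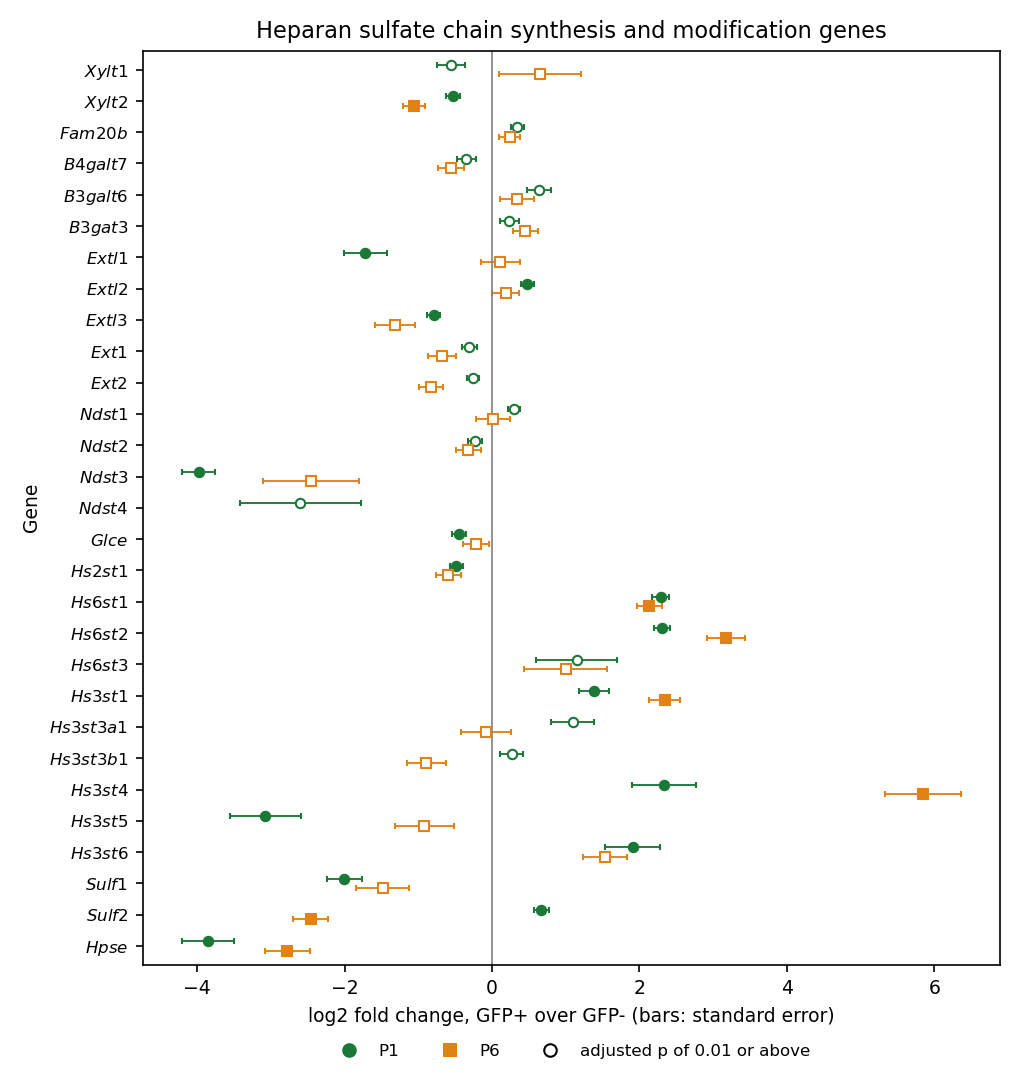
Log2 fold change of GFP+ over GFP- cells at P1 (green circles) and P6 (orange squares) for the tested genes of heparan sulfate chain synthesis and modification, with bars for the standard error and open symbols for an adjusted p of 0.01 or above. *Hs6st1*, *Hs6st2*, *Hs3st1* and *Hs3st4* lie to the right with filled symbols at both ages, and *Sulf2* lies to the right at P1 (0.67) and to the left at P6 (-2.46).

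The list of 8 other proteoglycan core proteins, not all of them carriers of heparan sulfate, had a median log2 fold change of -2.73 at P1. In GFP+ cells 1 was higher and 5 were lower, against 16.6% and 20.7% of all genes. *Cd44*, the hyaluronan receptor, was higher (log2 fold change 1.24). Of the 5, *Cspg4*, a chondroitin sulfate proteoglycan of pericytes (-4.79), the semaphorin and VEGF co-receptor *Nrp1* (-4.51) and *Srgn*, the serglycin of blood cell granules (-4.25), were lower by most. At P6 none of the 8 was called by edgeR, against 7.72% higher and 5.19% lower of all genes, with a median of -1.60. At an unadjusted p below 0.05 there were 7, a count without the share of all genes. DESeq2 called 5, where it called 2228 genes higher and 2569 lower among 18806. *Srgn* rose from P1 to P6 in GFP+ cells (log2 fold change 4.71, adjusted p = 0.00931), from 0.305 and 0.321 CPM to 4.22 and 11.4 CPM, and the higher P6 value was again in replicate 2. Without P1 GFP+ replicate 2 the adjusted p was 0.0251, and with library totals it was 0.0112. *Srgn* (2.18) and *Nrp1* (1.07) also rose in GFP- cells. *Agrn*, the basement membrane proteoglycan agrin, passed the interaction test (1.75, SE 0.27, adjusted p = 0.00971), with 1683 and 1811 CPM in P1 GFP+ cells and 477 and 695 CPM in P6 GFP+ cells, against 1262 to 1360 CPM in all GFP- libraries. This call was lost without any 1 of the P1 or P6 GFP- libraries or the P1 GFP+ libraries (adjusted p from 0.0262 to 0.0572).

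The list of 17 genes for cleavage, processing and cytoplasmic partners holds the binders of the syndecan tails printed above. At P1, 2 of 16 tested were higher in GFP+ cells and 7 were lower, against 16.6% and 20.7% of all genes. The 2 were *Sdcbp2* (syntenin-2, 2.49) and *Cask* (1.22), both scaffolds with PDZ domains. The related *Sdcbp* (syntenin-1) was among those that were lower, at 40.0 and 44.2 CPM against 165 and 149 CPM (log2 fold change -1.79). *Sdcbp2* was at 4.01 and 3.66 CPM against 0.633 and 0.824 CPM. At P6, *Sdcbp2* was the 1 of 17 that was higher (2.55), and *Mmp9* (-3.96), *Notum* (-1.85) and *Sdcbp* (-1.81) were the 3 that were lower, against 7.72% and 5.19% of all genes. No call was kept without P6 GFP- replicate 1 or 2, and more were made without P6 GFP+ replicate 1 or 2, as over all genes. DESeq2 called 7 of the list, where it called 2228 genes higher and 2569 lower among 18806. *Mmp9*, a metalloproteinase (-4.77), *Timp3*, an inhibitor of such proteinases (-3.93), and *Notum* (-3.33) were lower by most at P1. *Notum* was at 6.96 and 5.87 CPM in P1 GFP+ cells and rose to 25.7 and 33.3 CPM in P6 GFP+ cells (log2 fold change 2.29, adjusted p = 0.00428). *Timp3* also rose in GFP+ cells (2.69, adjusted p = 0.00991), from 27.4 and 22.5 CPM to 101 and 204 CPM, with the higher value in replicate 2. Without P1 GFP+ replicate 2 neither was called (adjusted p = 0.0247 and 0.0228). In GFP- cells 4 of 17 rose, against 5.04% of all genes. Fewer of the list were called without either P6 GFP- library, as over all genes. With library totals 1 was called, where 564 of 18920 genes were higher and 575 lower. With all 8 libraries in the fit 2 were called, where 540 of 19233 genes were higher and 229 lower. Of the 4 in the reported fit, those that rose by most were *Mmp9* (2.05), the membrane-bound metalloproteinase *Mmp14* (0.91) and the convertase *Furin* (0.81). Furin cuts glypican precursors. None of the 17 passed the interaction test by edgeR, with 7 at an unadjusted p below 0.05, a count without the share of all genes. DESeq2 called 3, where 539 genes had a larger ratio at P1 and 879 at P6, among 18499.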

How the data were processed

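RNA-seq data of 8 libraries from sorted mouse cochlear cells were used. The authors deposited, for each Ensembl gene, the raw count of reads after alignment to mm9 with TopHat (1.4.0 per the processing notes) and counting with HTSeq (version and mode not given in the sources used here), from a library kit that does not mark strand. Rows for reads on no gene, on several genes or at several places, 23.8% to 35.3% of those listed, were left out.

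The members and lists were chosen with earlier results of these data known. Each comparison was fitted on its 4 libraries with edgeR 4.0.16 (R 4.3.3) after filterByExpr (minimum count 10, minimum total count 15) and TMM normalization, using quasi-likelihood tests adjusted by Benjamini and Hochberg's method over all genes tested and a threshold of 0.01, and the interaction on all 8 libraries. Standard errors are the log2 fold change divided by the square root of F. CPM and RPKM used gene totals without TMM and NCBIM37 exon lengths. The text gives all 10 members, up to 3 called genes per direction from each other list and 2 genes of similar pattern per member. Separate animals per replicate were not stated, so p-values measure the spread between these samples, which may be technical. DESeq2 1.42.0, other scalings and filters, blocks and left-out libraries were tried. The fits were tested on simulated counts. Python 3.11.15, Biopython 1.88 and matplotlib 3.10.9 were used.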

Additional observations from a re-analysis of the deposited data

Results flagged for a closer look

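Both genes here are no members of the families but belong to their chain or core protein lists, and for both the ratio of GFP+ to GFP- cells differed between the ages by the interaction test of edgeR. For *Sulf2* the log2 ratio was larger at P1 by 3.15 (adjusted p = 0.00115). For *Agrn* it was larger at P1 by 1.75 (adjusted p = 0.00971). No group had enough libraries for a test of single outlying samples.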

How the results depend on the processing

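With 2 libraries per group, the number of calls moved more than the log2 fold changes did. Over the members, 457 of the alternative results kept their direction and side of the threshold, 55 passed it in addition, 18 lost it and 20 changed sign, all 20 at an adjusted p of 0.539 or above. Of the alternative results for called list genes, 489 kept the call, 89 lost it and none changed sign.

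In the P6 comparison of fractions, 1 member was higher by the reported fit, 2 with DESeq2 size factors, 3 by the DESeq2 test, 3 without the filter, 2 with all 8 libraries and 2 with the replicate block. Over all genes, 1413 of 18294, 1584 of 18294, 2228 of 18806, 2214 of 26518, 2302 of 19233 and 1430 of 18294 were higher in those settings, in the same order. In GFP+ cells, P6 against P1, 1 member was higher and 2 lower by the DESeq2 test, the same numbers without the filter, and 2 were lower with all 8 libraries. Over all genes, DESeq2 called 1883 higher and 1128 lower among 17530. Without the filter 2449 were higher and 1641 lower among 26149, and with all 8 libraries 819 were lower among 19233. In GFP- cells 1 was higher and 2 lower by DESeq2, 2 and 3 without the filter, and 1 was lower with library totals. Over all genes, DESeq2 called 1882 higher and 1168 lower among 17600. Without the filter 2351 were higher and 1642 lower among 27035, and with library totals 575 were lower among 18920. In the interaction, 1 had a larger ratio at P1 by DESeq2, where 539 of 18499 genes did. Without the filter 1 had a larger ratio at P1 and 1 at P6, where 742 and 1658 of 28415 genes did.

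Leaving out each library in turn, a fit in which the lone sample is assumed to vary like the other group, gave 2 to 4 members higher and 2 to 5 lower at P1. At P6 it gave 0 to 4 higher and 0 to 4 lower. For P6 against P1, GFP+ cells had 0 to 3 higher and 0 to 3 lower, whereas GFP- cells had 0 to 3 higher and 0 to 2 lower. In the interaction some of these fits called a member and some did not. Calls over all genes also rose and fell with the library left out, so these counts describe the fits and not the members.

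The labels do not say whether samples of the same replicate number were paired. Correlations of the replicate differences cannot decide it, because they were larger in size between ages than between fractions of the same age. Across 10911 genes, the correlation of the replicate differences between groups was 0.07 at P1, 0.06 at P6, -0.20 between ages for GFP+ cells and -0.35 for GFP- cells. The replicate block left the numbers of called members as reported except at P6, where 2 were higher. With crossed pairs, chosen after seeing the data, GFP- cells had 2 members higher and 2 lower, and GFP+ cells 0 and 1.

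Signs changed as follows, on the log2 scale. For *Gpc2* at P6 the value was 0.022 with DESeq2 size factors, 0.0028 by the DESeq2 test, 0.020 with the replicate block, and -0.21 to 0.30 with libraries left out. For *Gpc4* at P6 it was -0.16 to 0.12 with libraries left out. In GFP+ cells, P6 against P1, *Gpc2* was at -0.085 with library totals and -0.013 without the filter, and with libraries left out *Gpc2* ranged over -0.013 to 0.035, *Gpc3* over -0.0028 to 1.43, *Sdc1* over -0.026 to 0.29 and *Sdc3* over -0.69 to 0.021. In GFP- cells *Sdc3* was at -0.018 with library totals, and with libraries left out *Gpc1* ranged over -0.014 to 0.82 and *Gpc3* over -0.32 to 0.14. The interaction of *Gpc5* ranged over -0.43 to 0.16. Depth limited *Gpc5*, at 10 to 19 counts in GFP+ libraries.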
